A study of Mus musculus with 2 samples.

Results

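Natural killer (NK) nuclei of the epididymal white adipose tissue (WAT) were 215 of the 16477 nuclei kept from both libraries of this study, 70 in HF-PBS and 145 in HF-HHT. They were chosen by the RNA they held. Nuclei with at least 500 unique molecular identifiers (UMIs, 1 per captured RNA molecule), more than 400 genes and less than 0.5% mitochondrial UMIs were kept, and an NK nucleus held at least 2 UMIs of Ncr1, Klrb1c, Eomes and Samd3 together with at least 1 of Ncr1 or Klrb1c, at least 1 UMI of Skap1 or Cd247, and none of the T-cell genes Themis, Cd3e and Cd3g or of the B-cell genes Pax5 and Ms4a1. Male C57BL/6N mice, 8 weeks old at the start, ate a high-fat (HF) diet for 6 weeks and then for 8 more weeks with 3 intraperitoneal injections per week. These were of PBS (HF-PBS) or of homoharringtonine taken up in DMSO and then diluted in PBS (HF-HHT). Whether the PBS injections held DMSO is not stated in the paper. Homoharringtonine (HHT) is an alkaloid of plum yews, given against leukemia, that stops ribosomes at the start of protein synthesis. Epididymal WAT of 3 mice was pooled per group, frozen, and its DAPI-stained nuclei were sorted by flow cytometry into a droplet capture, giving 1 library per group.

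NK cells are innate lymphocytes that kill infected, transformed or stressed cells without rearranged antigen receptors. Activating receptors such as NKp46 and NKG2D, which read ligands of stress and infection, are weighed against inhibitory receptors, NKG2A and many of the Ly49 type, which read class I molecules of the major histocompatibility complex. Some Ly49 receptors are activating. When activation prevails, the cell releases perforin and granzymes and secretes interferon gamma. Fat holds circulating, conventional NK cells, which depend on Eomes, and resident group 1 innate lymphoid cells (ILC1), which carry the same surface receptors, and both can pass the rule used here. In obese epididymal fat, interferon gamma from these cells is known to act on macrophages.

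Sequencing gave 76197757 UMIs for HF-PBS and 73313558 for HF-HHT, and 8618 and 7859 nuclei were kept. NK nuclei were shallow, with a median of 2093.5 UMIs for HF-PBS (range 699 to 27722) and of 1845 for HF-HHT (514 to 52927), against 4073 and 4007 over all kept nuclei. Summed over NK nuclei, HF-PBS held 209678 UMIs and HF-HHT 452069. Both libraries shared 20 of the kept barcodes, but no NK barcode was an NK barcode in both (1 was NK in one library and kept in the other). With 1 library per group there is no replicate check and no test, so no p-value is given, and every 95% interval below (exact binomial for a share, exact conditional for a ratio) covers counting error alone and leaves out how mice, or the handling of each pool, may differ. For gene ratios the interval also treats each UMI as an independent draw. It is too narrow where 1 nucleus holds many of a gene's UMIs.

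Some NK droplets also held RNA of another cell type. A barcode was called mixed where at least 3 UMIs and at least 0.2% of its UMIs came from the markers of 1 of 8 other classes, a limit set after the counts were seen. Of the 70 HF-PBS barcodes 21 were mixed (30.0%, exact interval 19.6 to 42.1%), and of the 145 HF-HHT barcodes 28 (19.3%, 13.2 to 26.7%), and since they were deep they held 52.1% and 49.2% of the NK UMIs. In HF-PBS, 18 of the 21 were mixed by macrophage markers. In HF-HHT, 14 of the 28 were, and 7 were mixed by adipocyte markers. Without them, 49 and 117 NK nuclei remained with 100370 and 229567 UMIs and medians of 1706 and 1718 UMIs. Values are therefore given for all NK nuclei and, where named so, without mixed barcodes, and ratios quoted for T nuclei rest on the 287 HF-PBS and 168 HF-HHT T nuclei that were not mixed.

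The genes of the rule describe the members and are no finding. Ncr1, which encodes the activating receptor NKp46, had a UMI in 36 of 70 HF-PBS nuclei (51.4%) and 118 of 145 HF-HHT nuclei (81.4%), at 286 and 527 CPM (UMIs scaled to a common class total of 1e+06). Klrb1c, which encodes NK1.1, was found in 58 (82.9%) and 109 (75.2%) nuclei. Nuclei with Ncr1 and Klrb1c together numbered 24 and 82, those with Klrb1c and no Ncr1 34 and 27. Samd3 was found in 49 (70.0%) and 98 (67.6%), Cd247, the CD3 zeta signaling chain that NK receptors use, in 37 (52.9%) and 82 (56.6%), and Skap1, a signaling adaptor of lymphocytes, in 69 and 142. Eomes, the transcription factor of conventional NK cells, had a UMI in 8 (11.4%) and 21 (14.5%) nuclei at this depth. Just inside the rule, 25 HF-PBS and 34 HF-HHT members held exactly 2 UMIs of the 4 NK genes. Just outside, 32 and 30 barcodes held exactly 1 such UMI and met all else, and 9 and 11 held at least 2 but neither Ncr1 nor Klrb1c. A further 4 and 8 missed by 1 UMI of a T-cell gene, and 10 and 5 by 2 or more. The B-cell genes alone kept out 4 and 1, and a lack of both Skap1 and Cd247 kept out 1 and 5. What part these exclusions have in the NK shares was not tested. Nuclei with macrophage markers, chosen whether or not they held lymphocyte genes, were expected to lack the NK genes. Their median depths were 5245.5 and 5260.5 UMIs. The full NK rule was met by 13 of 5600 such HF-PBS nuclei (0.232%) and 14 of 3180 such HF-HHT nuclei (0.440%), which are themselves among the NK nuclei. Ncr1 had a UMI in 0.250% and 0.755% of the nuclei with macrophage markers.

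Markers of other cell types bear on what the members hold. Of the remaining T-cell genes, Cd8a and Cd8b1 were at 0 in both libraries. Trac, the constant region of the T-cell receptor alpha chain, had 0 UMIs (HF-PBS) and 1 UMI (HF-HHT). The whole T list of 10 genes, in which the rule holds Themis, Cd3e and Cd3g at 0, had 42.9 and 11.1 CPM. Trbc1, a T-cell receptor beta constant gene whose transcript NK cells can also carry, had 22 and 49 UMIs, and Trbc2 had 1 and 6. The rule did not screen the delta and gamma constant genes. Of these, Trdc had a UMI in 5 of 70 and 6 of 145 nuclei. Tcrg-C1, Tcrg-C2 and Tcrg-C4 had 2, 0 and 3 UMIs in HF-PBS and 0, 4 and 3 in HF-HHT. The B-cell genes Cd79a and Cd79b were at 0 in both libraries, and within the whole B list of 8 genes the rule holds Pax5 and Ms4a1 at 0. This list still had 2098 and 2491 CPM, with a UMI in 32 of 70 and 74 of 145 nuclei. It had 308.9 and 348.5 CPM without mixed barcodes, and stood at 2188 and 2173 CPM in free RNA. Most of it was Ebf1 (422 and 1105 UMIs), an early B-cell factor that adipocytes and APCs also express, at 9249 and 7739 CPM in adipocyte nuclei. Of the others, Bank1, a B-cell adaptor, had 15 and 13 UMIs and Ighm, the heavy chain of IgM, 3 and 8. The 12 macrophage markers together reached 2275 and 876 CPM, or 817 and 440 CPM without mixed barcodes, and the 9 adipocyte markers at 992 and 2250 CPM, or 179 and 449 CPM. The 7 erythroid markers stood at 4.77 and 349.5 CPM, with a UMI in 1 of 70 and 61 of 145 nuclei, and in free RNA (the profile of near-empty droplets) at 30.4 and 1776 CPM. Hbb-bs, an adult beta-globin gene, had 0 and 65 UMIs. Free RNA was estimated to supply 25.3% of the HF-PBS UMIs and 16.3% of the HF-HHT UMIs once mixed barcodes were left out, from 40 genes of other cell types. What part these sources have in the ratios below was not tested beyond the values given beside them.

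NK nuclei carried the genes of the NK gene complex, a cluster of lectin-like receptor genes. In both libraries, 19 genes outside the rule had a CPM at least 5 times that in T, B, macrophage, adipocyte and adipocyte precursor cell (APC) nuclei alike, and 12 of them lay on chromosome 6 within 2.54 Mb, from 128813706 to 131353597 on GRCm38. These were Klra4, Klra7, Klra8, Klrb1b, Klrb1f, Klrc1, Klrc2, Klrd1, Klre1, Klri2, Klrk1 and Styk1. Klra4 and Klra8, which encode the activating receptors Ly49D and Ly49H, had 386 and 324 CPM in NK nuclei of HF-PBS, then 312 and 347 CPM in those of HF-HHT. Klra4 reached at most 2.83 CPM in any of the other 5 classes. Reads of the Klra genes, near-identical copies, can be split or lost in counting, so single Klra levels are uncertain. Outside chromosome 6 the 19 held Itga2, the integrin alpha 2 chain (CD49b, DX5) that marks conventional NK cells, Clnk, an adaptor of immunoreceptor signaling, Txk, a TEC-family kinase, Cd244a, the receptor 2B4, Emid1, and the predicted genes Gm43647 and Gm41031.

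**Figure D1:**
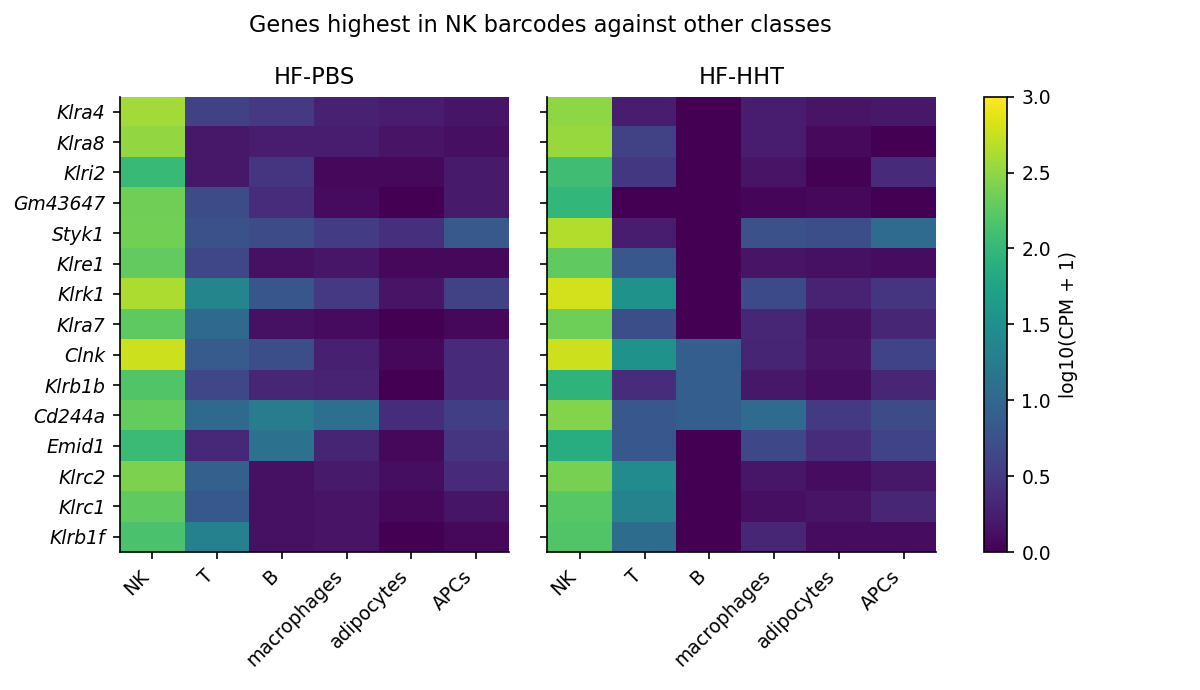
CPM of NK genes (rows) in NK, T, B, macrophage, adipocyte and APC nuclei of both libraries, on a log scale. Genes of the NK gene complex stand highest in the NK columns. Klra4 (386 and 312 CPM) is near 0 elsewhere, while others reach further into T nuclei, such as Klrk1 at 22.1 and 32.8 CPM there.

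NK nuclei made up a larger part of the HF-HHT library. They were 0.812% of the kept nuclei in HF-PBS (70 of 8618, interval 0.634 to 1.03%) and 1.85% in HF-HHT (145 of 7859, 1.56 to 2.17%), 2.27-fold higher in HF-HHT (interval 1.7 to 3.07). T nuclei went the other way, from 419 (4.86%) to 226 (2.88%), 1.69-fold lower (1.43 to 2.0), and B nuclei from 698 (8.10%) to 24 (0.305%), 26.5-fold lower. Against T nuclei alone there were thus 16.7 NK nuclei per 100 T nuclei in HF-PBS and 64.2 in HF-HHT. Of T and NK nuclei together, 14.3% (interval 11.3 to 17.7%) and 39.1% (34.1 to 44.3%) were NK, 2.73-fold higher (2.04 to 3.69). After every nucleus was thinned to 1000 UMIs, the NK share was 0.407% (32 of 7865 nuclei of that depth) and 1.11% (78 of 6998). With mixed NK barcodes left out it was 0.570% and 1.49%. The shares are those of sorted nuclei and add up to 100% with the other classes, so they do not give the number of NK cells in the depot.

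**Figure D2:**
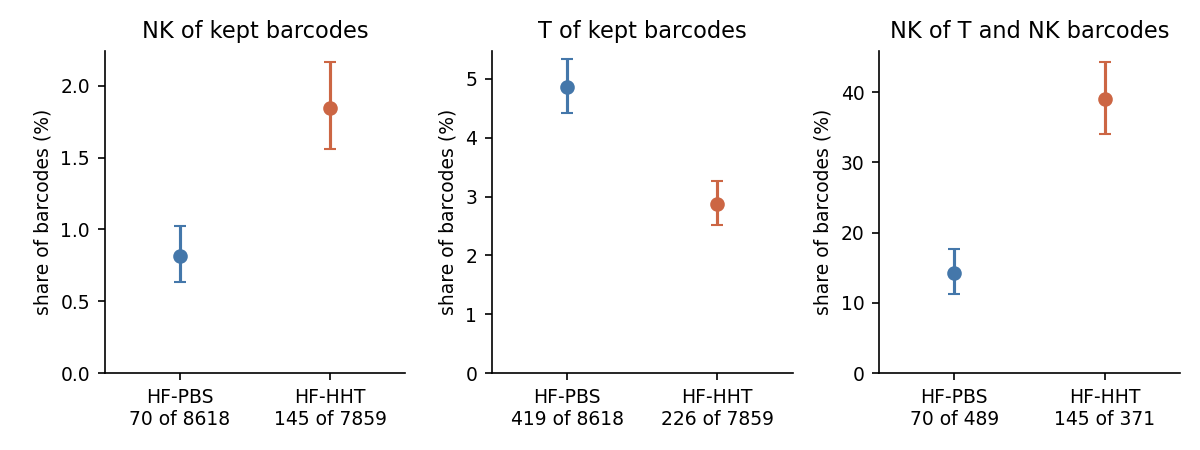
Share (%) of NK nuclei among kept nuclei, of T nuclei among kept nuclei, and of NK nuclei among T and NK nuclei, in HF-PBS and HF-HHT as counted. Points are shares and lines are exact 95% binomial intervals (counting error only). The NK share of HF-HHT lies above that of HF-PBS, at 1.85% against 0.812% of kept nuclei. The T share lies below it, at 2.88% against 4.86%.

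Within NK nuclei, 5795 genes had at least 20 UMIs over both libraries. Differences are log2 ratios of CPM with HF-PBS as the base, and "higher" and "lower" below stand for a CPM that differed by 1.5-fold or more, a measure of size that is no test. By that size 1400 genes were higher in HF-HHT (24.2%) and 909 lower (15.7%), with a median log2 ratio of 0.02. Without mixed barcodes, 758 of 3506 were higher (21.6%) and 526 lower (15%), and 433 and 266 genes were higher or lower in both counts. At this depth many of these ratios are within counting error. The interval lay above 0 for 12.5% of genes and below 0 for 12.0%, or for 7.02% and 7.33% without mixed barcodes. These shares are the background against which each list is to be read.

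Perforin stood out among the genes of killing. Prf1, which encodes this pore-forming protein, had 1 UMI in 1 of 70 HF-PBS nuclei and 59 UMIs in 34 of 145 HF-HHT nuclei, shares of 1.43% (interval 0.0362 to 7.7%) and 23.4% (16.8 to 31.2%). Its CPM was 4.77 and 131, a log2 ratio of 4.77 (interval 2.24 to 10.10), wide because HF-PBS held a single UMI. Without mixed barcodes it was found in 1 of 49 and 30 of 117 nuclei (log2 ratio 4.39, 1.84 to 9.72), and after thinning to 1000 UMIs in 0 of 62 (which allows a share of up to 4.84%, at 3 counts) and 23 of 128. Macrophages held a Prf1 UMI in 0.143% and 0.283% of nuclei. Gzmb, which encodes granzyme B, had no UMI in 70 HF-PBS nuclei (which allows a share of up to 4.29%, at 3 counts) but 27 UMIs in 13 HF-HHT nuclei, at least 4.17-fold higher with 3 counts as the floor of the HF-PBS library, and 10 of the 27 UMIs came from 1 nucleus. Of the 34 HF-HHT nuclei with Prf1, 21 also held Itga2 and 7 also held Gzmb.

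Other granule genes did not share one direction. Gzma, granzyme A, which was named after its values were seen, had 14 UMIs in 9 HF-PBS nuclei and 56 UMIs in 32 HF-HHT nuclei (log2 ratio 0.89, interval 0.03 to 1.85). Nkg7, a granule membrane protein of killer lymphocytes, had 6 and 33 UMIs (1.35, 0.08 to 2.90). Rab27a, a GTPase that docks lytic granules at the membrane, was lower in HF-HHT, with 67 UMIs in 34 nuclei (320 CPM) and 57 UMIs in 42 nuclei (126 CPM), a log2 ratio of −1.34 (−1.88 to −0.81) that stood at −1.29 without mixed barcodes and at −0.90 in T nuclei. Ctsc, the protease that activates granzymes, had −0.88 (−1.44 to −0.32) over all nuclei but 0.22 without mixed barcodes, and Stxbp2, which acts in granule fusion, −0.97 (−2.35 to 0.42). Of 18 measured genes of the cytotoxic list, 7 were higher and 4 lower in the HF-HHT library (median 0.41), and without mixed barcodes 8 of 16 were higher and 1 lower (median 0.60). Over the 13 of these genes also measured in T nuclei, the median without mixed barcodes was 0.10 in T nuclei and 0.31 in NK nuclei. Effector cytokines were sparse. Ifng, interferon gamma, had fewer than 20 UMIs and was not measured, and of 5 measured genes 1 was higher (Xcl1, a chemokine that attracts dendritic cells, 3 and 18 UMIs, log2 ratio 1.48, −0.30 to 3.88). Ccl5, another chemokine of killer lymphocytes, had 25 and 74 UMIs (0.46, −0.21 to 1.17).

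**Figure D3:**
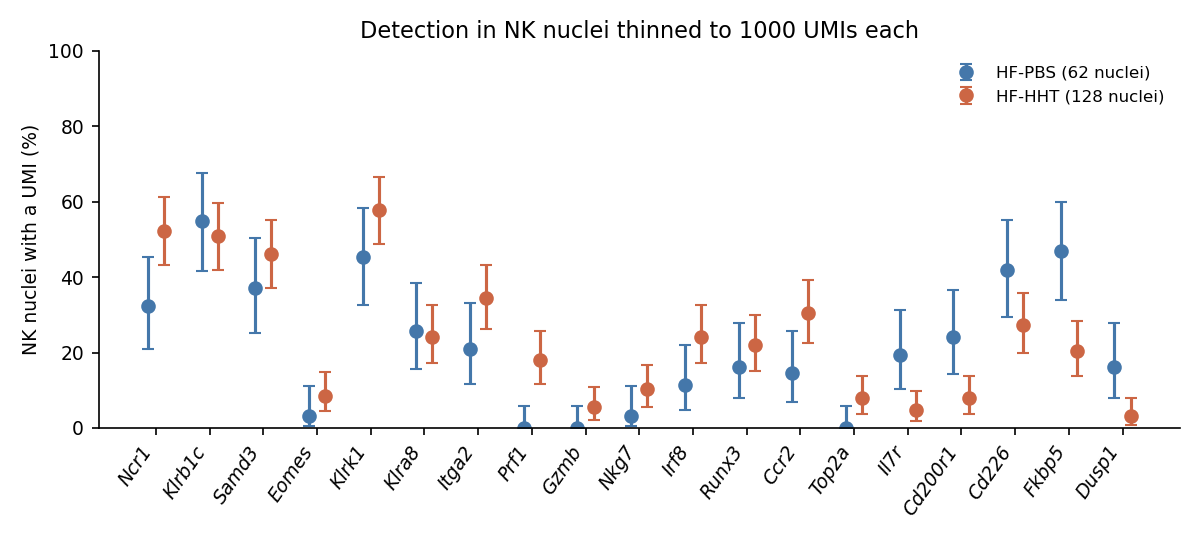
Share of NK nuclei (%) with a UMI of each gene after thinning to 1000 UMIs (62 HF-PBS and 128 HF-HHT nuclei), with points for shares and lines for exact 95% binomial intervals. Prf1 lies at 0% and 18.0%, Itga2 at 21.0% and 34.4%, and Il7r at 19.4% and 4.69%.

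Of 13 measured activating receptors and adaptors, 3 were higher and 2 lower in HF-HHT, and without mixed barcodes 6 and 2. Over the 10 of them also measured in T nuclei, 5 were higher and none lower there. Their median was 0.59 in T nuclei and 0.31 in NK nuclei. Klrk1, which encodes NKG2D, had a UMI in 42 of 70 HF-PBS nuclei (60.0%, 425 CPM) and 114 of 145 HF-HHT nuclei (78.6%, 626 CPM), a log2 ratio of 0.56 (interval 0.21 to 0.92), with 1.80% and 2.67% of macrophages holding a UMI. In T nuclei the Klrk1 ratio was 1.08 (0.37 to 1.79). Tyrobp, which encodes the adaptor DAP12, had 3 and 31 UMIs (2.26, 0.58 to 4.61), and Slamf7, a homotypic activating receptor, 8 and 42 (1.28, 0.18 to 2.59). Fcer1g, the signaling chain shared by NKp46 and CD16, had 10 and 36 UMIs (0.74, −0.30 to 1.92). Cd226, the receptor DNAM-1 for nectin-family ligands, went the other way, from 146 UMIs in 36 nuclei (696 CPM) to 144 UMIs in 53 nuclei (318 CPM), a ratio of −1.13 (−1.47 to −0.79). That of Cd226 was −0.83 without mixed barcodes and −0.12 when NK nuclei with 3 UMIs of any other class were left out. Slamf6 had −0.77 (−1.82 to 0.31) and Sh2d1a, the SLAM-family adaptor SAP, −0.46 (−1.26 to 0.36). Styk1, a kinase-like gene of NK cells, had 48 UMIs in 18 HF-PBS nuclei and 202 UMIs in 70 HF-HHT nuclei (0.96, 0.50 to 1.45), and 1.68 without mixed barcodes.

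Over all nuclei, the inhibitory receptor gene Klrc1 and its relatives Klrc2, Klre1, Klra8 and Klra4 differed by less than 1.5-fold between the libraries, and the inhibitory Klrb1b was 1.72-fold lower in HF-HHT. Klrc1, which encodes NKG2A, had levels of 186 and 164 CPM, a log2 ratio of −0.18 (interval −0.76 to 0.41). Its neighbor Klrc2, the activating NKG2C, had −0.07 (−0.55 to 0.43), Klre1 −0.04 (−0.60 to 0.54), the activating Klra8 0.10 (−0.32 to 0.53) and the activating Klra4 −0.31 (−0.71 to 0.10, or −0.57 and −1.01 to −0.12 without mixed barcodes). Klrb1b, the inhibitory NKR-P1B, had 32 and 40 UMIs (−0.79, −1.49 to −0.07), and −0.49 (−1.26 to 0.30) without mixed barcodes. Cd200r1, an inhibitory receptor for CD200, stood at 267 and 104 CPM (56 UMIs in 25 nuclei and 47 in 21), a ratio of −1.36 (−1.95 to −0.78), but its level in free RNA was 257 and 66.1 CPM, and the ratio was 0.14 when NK nuclei with 3 UMIs of any other class were left out. Pirb, a paired inhibitory receptor of myeloid cells, had −1.30 over all nuclei and 1 and 5 UMIs without mixed barcodes. In all, of 17 measured genes in the list of inhibitory receptors, which also held the activating Klra4 and Klra8, none was higher and 3 were lower, with a median of −0.18. Without mixed barcodes 1 of 16 was higher and 2 lower.

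Il7r, the alpha chain of the interleukin 7 receptor, had the lowest ratio of the 21 cytokine receptors measured. It had 77 UMIs in 25 of 70 HF-PBS nuclei (35.7%, 367 CPM) and 23 UMIs in 12 of 145 HF-HHT nuclei (8.28%, 50.9 CPM), 7.22-fold lower, with a log2 ratio of −2.85 (interval −3.59 to −2.16). Without mixed barcodes it was found in 16 of 49 and 9 of 117 nuclei (−3.07, −4.00 to −2.22), and after thinning in 12 of 62 and 6 of 128. In T nuclei without mixed barcodes the ratio was −0.04. Il7r also moved in other RNA of these libraries, with 202 and 51.9 CPM in free RNA and a UMI in 32.8% and 12.0% of macrophages (ratio −1.87). The HF-HHT level of 50.9 CPM in NK nuclei is close to that of free RNA. After free RNA was subtracted the ratio was −3.05. Il21r, the interleukin 21 receptor, had 14 and 11 UMIs (−1.46, −2.74 to −0.21), and Il18r1, a chain of the interleukin 18 receptor, 140 UMIs in 49 nuclei and 164 in 84 (−0.88, −1.21 to −0.54). Il2ra, the high-affinity chain of the interleukin 2 receptor, was higher, with 6 and 39 UMIs (1.59, 0.34 to 3.12), and 1.77 in T nuclei. Il6st (gp130) had 1.11 (0.20 to 2.15) and Il12rb2, a chain of the interleukin 12 receptor, 0.62 (−0.04 to 1.33). Of 21 cytokine receptors 3 were higher and 4 lower, and without mixed barcodes 3 of 19 were higher and 3 lower.

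Genes that set ILC1 apart from conventional NK cells were compared as lists. Of 9 measured ILC1 genes, 1 was higher and 4 lower in HF-HHT (median −0.52), and without mixed barcodes 1 was higher and 5 lower (median −0.97). Over the 8 of them also measured in T nuclei, the median was −0.15 in T nuclei and −0.97 in NK nuclei. Of 12 measured conventional NK genes, 4 were higher and none lower (median 0.00), and without mixed barcodes 3 and none (median 0.25). For the 7 of these also measured in T nuclei, the median was −0.67 in T nuclei and 0.36 in NK nuclei. Itga2 had 40 UMIs in 22 HF-PBS nuclei (31.4%) and 162 UMIs in 73 HF-HHT nuclei (50.3%), a ratio of 0.91 (interval 0.40 to 1.45), or 1.33 (0.68 to 2.03) without mixed barcodes, against −0.92 in T nuclei. Macrophages held an Itga2 UMI in 1.41% and 1.70%. Itga1, the integrin CD49a of resident ILC1, had 34 and 89 UMIs (0.28, −0.31 to 0.89), but −0.97 (−1.95 to 0.02) without mixed barcodes, and Rora, a transcription factor of innate lymphoid cells that adipocytes and other stroma also express, 0.36 (0.01 to 0.72) but −1.43 (−2.15 to −0.73). Zeb2, a factor of late NK maturation that macrophages express strongly, had −0.56 (−0.72 to −0.41) and 0.14 (−0.18 to 0.48).

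Counted nucleus by nucleus, the lists split the libraries in the same sense. This recounts UMIs of the same lists in the same nuclei and is no separate support. More UMIs of ILC1 genes than of conventional NK genes were found in 29 of 70 HF-PBS nuclei (41.4%, interval 29.8 to 53.8%) and 25 of 145 HF-HHT nuclei (17.2%, 11.5 to 24.4%), a log2 ratio of shares of −1.27 (−2.10 to −0.44). More conventional NK UMIs were found in 40 (57.1%) and 116 (80.0%). Without mixed barcodes 20 of 49 (40.8%) and 18 of 117 (15.4%) nuclei leaned to ILC1 genes, and after thinning to 1000 UMIs 23 of 62 (37.1%) and 20 of 128 (15.6%). Zeb2 supplied 581 of the 942 conventional NK UMIs in HF-PBS and 848 of the 1829 in HF-HHT. Of the UMIs of both lists, 32.8% and 26.7% were of ILC1 genes with Zeb2, and 56.0% and 40.4% without it. With Zeb2 left out, an alternative chosen after the counts were seen, 34 of 70 (48.6%) and 33 of 145 (22.8%) nuclei leaned to ILC1 genes (−1.09, −1.83 to −0.36), and 22 of 49 and 18 of 117 without mixed barcodes. The lean was not recounted with free RNA subtracted, or with nuclei holding 3 UMIs of any other class left out. Il7r and Itga2 were found together in 6 of 70 and 3 of 145 nuclei. The lean is a range and not a cell type, since Eomes was too sparse to sort the nuclei, and a shift of the mix and a shift within each kind of cell cannot be told apart here.

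**Figure D4:**
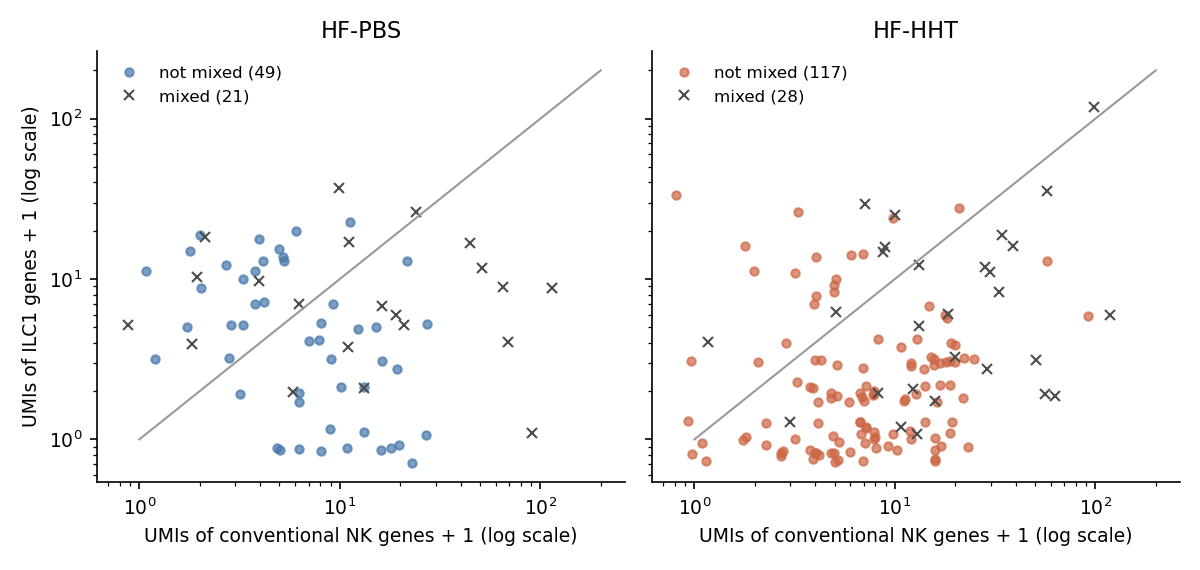
UMIs of conventional NK genes (x axis) and of ILC1 genes (y axis) in each NK nucleus, with 1 added and log axes, points shifted by up to 0.3 to separate them, for HF-PBS and HF-HHT. Points above the diagonal number 29 of 70 for HF-PBS and 25 of 145 for HF-HHT.

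Single transcription factors of lymphocytes differed, in both directions. Irf8, which supports NK maturation, had 15 UMIs in 13 HF-PBS nuclei (71.5 CPM) and 100 UMIs in 47 HF-HHT nuclei (221 CPM), a log2 ratio of 1.63 (interval 0.84 to 2.52), with 1.69 without mixed barcodes and 0.78 in T nuclei. Macrophages, which also use Irf8, held a UMI in 33.2% and 34.1% of nuclei. Runx3, a factor of killer lymphocytes, had 19 UMIs in 15 nuclei and 93 in 53 (1.18, 0.46 to 1.98), and Skil, a brake on SMAD signaling, 12 and 47 UMIs (0.86, −0.08 to 1.91). Lower ratios were found for Tcf7 (the factor TCF-1 of naive and memory-like lymphocytes) at 152.6 and 86.3 CPM (−0.82, −1.53 to −0.10), for Bcl11b, a zinc finger factor of T and innate lymphoid cells, at −1.19 (−2.24 to −0.15) and Foxo3, a forkhead factor of quiescence, at −0.93 (−1.37 to −0.48). Tbx21, which encodes T-bet, the partner of Eomes, was also named after its values were seen and stood at 343 and 312 CPM (−0.14, −0.56 to 0.29). Over the list of 37 factors 6 were higher and 7 lower, and without mixed barcodes 5 and 11.

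Homing and adhesion genes leaned upward once mixed barcodes were left out, with 8 of 24 higher and 3 lower (median 0.32), against 6 of 27 and 3 over all nuclei (median 0.00). Ccr2, the chemokine receptor that brings blood leukocytes into inflamed fat, had 32 UMIs in 24 HF-PBS nuclei (152.6 CPM) and 139 UMIs in 71 HF-HHT nuclei (307.5 CPM), a log2 ratio of 1.01 (interval 0.45 to 1.61), where T nuclei had 0.39 and macrophages 1.77. Icam1, an integrin ligand, had 9 and 43 UMIs (1.15, 0.09 to 2.37) and the tetraspanin gene Cd9 4 and 37 UMIs (2.10, 0.62 to 4.05). Cd44, the hyaluronan receptor, stood at 677 and 303 CPM (−1.16, −1.51 to −0.81), or −0.61 without mixed barcodes. Rgs1, a regulator of chemokine signaling in resident lymphocytes, had 14 and 9 UMIs (−1.75, −3.13 to −0.44), with 174 and 38.6 CPM in free RNA.

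Signaling genes behind the receptors were lower on balance. Of 51 measured genes of ITAM and antigen receptor type signaling, 2 were higher and 15 lower (median −0.33). The lean was smaller without mixed barcodes, where 4 of 47 were higher and 5 lower (median −0.11). Syk, a kinase that ITAM chains recruit, had −1.03 (interval −1.45 to −0.61) over all nuclei and −0.22 (−0.85 to 0.45) without mixed barcodes, and Itpkb, an inositol phosphate kinase, −1.03 and −0.54 (−0.94 to −0.12). Rasgrp1, which activates RAS, had 0.76 (−0.03 to 1.63). In JAK STAT signaling 3 of 18 genes were higher and 2 lower, and without mixed barcodes 2 of 14 and 1. Jak1 stood at 1412 and 907 CPM (−0.64, −0.86 to −0.42) and Cish, a feedback inhibitor that interleukins induce and a brake on NK cells, had 4 and 34 UMIs over all nuclei (1.98, 0.49 to 3.93) but 4 and 12 without mixed barcodes (0.39). Of the BCL2 family, none of 6 was higher and 1 lower, and the survival gene Bcl2 stood at 1507 and 1416 CPM (−0.09, −0.29 to 0.11).

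Most cell cycle genes with at least 20 UMIs were higher in HF-HHT, but the list median turned to −0.13 at a minimum of 50 UMIs, and a few nuclei carried much of the list. Of 18 measured, 11 were higher and none lower (median 0.78), and without mixed barcodes 10 of 13 were higher and 1 lower (median 1.54), beside 0.77 in T nuclei. Top2a, the topoisomerase of dividing cells, had 4 UMIs in 1 HF-PBS nucleus and 42 UMIs in 17 HF-HHT nuclei (2.28, interval 0.82 to 4.22). Without mixed barcodes it had 0 and 37 UMIs, at least 5.39-fold higher, and macrophages held a UMI in 7.38% and 11.4%. Cenpp, a kinetochore gene, had 2 and 29 UMIs (2.75, 0.77 to 5.86) and Cenpe, a mitotic motor, 3 and 23 (1.83, 0.10 to 4.21). Mki67, named after its values were seen, had 5 UMIs in 2 nuclei and 29 in 13, and 8 HF-HHT nuclei held Top2a and Mki67 together. Atad2 had −0.43 (−1.28 to 0.45) and Smc4, a condensin subunit, −0.38 (−1.04 to 0.30). Without mixed barcodes, 5 of the 117 HF-HHT nuclei held 56.5% of the 680 cell cycle UMIs. The share of nuclei with such UMIs did not move in one direction. At least 5 were found in 14 of 70 and 29 of 145 nuclei, which are equal shares, without mixed barcodes in 6 of 49 (12.2%) and 17 of 117 (14.5%), and after thinning in 1 of 62 (1.61%, interval 0.0408 to 8.66%) and 9 of 128 (7.03%, 3.27 to 12.9%), intervals that overlap. Also after thinning, at least 1 was found in 67.7% and 57.8% and at least 3 in 14.5% and 14.1%. Among inhibitors of the cycle and p53 targets, 7 of 14 were higher and 3 lower (median 0.59, or −0.13 at a minimum of 50 UMIs), with Rbl1, a retinoblastoma-family gene, at 4 and 24 UMIs (1.48, −0.06 to 3.46) and Mdm2, which degrades p53, at −0.95 (−1.58 to −0.31). Without mixed barcodes 3 of 10 were higher and 1 lower.

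Ribosomal protein genes, whose products build the ribosome, were higher in HF-HHT NK nuclei. Of 70 measured, 49 were higher and none lower (median 0.85), with the interval above 0 for 23. Without mixed barcodes 46 of 56 were higher and none lower (median 1.04), beside a median of 0.73 in T nuclei without mixed barcodes, 1.20 in macrophages, 0.74 in adipocytes and 0.95 in APCs. Rpl21 had 2 and 31 UMIs (2.85, interval 0.87 to 5.95) and Rpl32 3 and 35 (2.44, 0.77 to 4.78), while Rpl36 had 9 and 13 (−0.58, −1.92 to 0.83). Free RNA moved the same way, where this list made up 7102 and 15870 CPM, against 3348 and 5813 CPM in NK nuclei. After free RNA was subtracted the list median was 1.03. Reads of ribosomal protein genes can be shared with their many processed pseudogenes.

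Of 37 translation factors, 12 were higher and 1 lower (median 0.33), and without mixed barcodes 10 of 24 and 1 (median 0.49). Over the 23 of them also measured in T nuclei, the median was 0.49 in T nuclei and 0.45 in NK nuclei. Eef1a1, the elongation factor that brings transfer RNA to the ribosome, had 20 UMIs in 16 nuclei and 125 UMIs in 69 (1.54, 0.85 to 2.30), with 269 and 630 CPM in free RNA. Gas5, a non-coding host of small nucleolar RNAs that accumulates when translation slows, had 3 and 33 UMIs (2.35, 0.68 to 4.70) and was 1 of the 2 host genes measured. Snhg11, the other, had 16 UMIs in 1 HF-PBS nucleus and 62 in 16 HF-HHT nuclei. Of the ATF4 stress response, which uncharged transfer RNA or unfolded protein can start, 4 of 13 were higher and none lower (median 0.25), and without mixed barcodes 2 of 6 and none. Atf4 itself had 5 and 24 UMIs (1.15, −0.26 to 2.90).

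Hspa5, which encodes the chaperone BiP of the endoplasmic reticulum and which the study proposed as a target of HHT, had 17 UMIs in 15 HF-PBS nuclei (81.1 CPM) and 46 UMIs in 35 HF-HHT nuclei (102 CPM). Its log2 ratio was 0.33 (interval −0.50 to 1.22), a difference not detectable at this depth, and its free RNA held 267 and 410 CPM. Of 20 chaperones and genes of the unfolded protein response 7 were higher and 2 lower (median 0.27), and without mixed barcodes 6 of 14 and 2 (median 0.42). Sec61a1, the channel into the endoplasmic reticulum, had 1.70 (0.18 to 3.67), Dnajc3, a co-chaperone of BiP, 1.04 (0.24 to 1.92), and Hsp90b1 (GRP94) 0.79 (0.02 to 1.63). Edem1, which routes misfolded proteins to degradation, had −1.21 (−2.02 to −0.40).

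Interferon-response genes were higher in part. Of 36 measured, 16 were higher and 4 lower (median 0.55), and without mixed barcodes 10 of 27 and 4 (median 0.39). The median over the same genes was 0.23 in T nuclei, 1.25 in macrophages and 1.71 in adipocytes, and free RNA held 2898 and 6405 CPM of them. Gbp2, a guanylate-binding protein against pathogens, had 2 and 38 UMIs (3.14, interval 1.19 to 6.24), and Gbp6 1 and 23 (3.42, 0.79 to 8.78). Slfn8 had −1.26 (−2.26 to −0.27) and Slfn2, a brake on lymphocyte activation, −1.03 (−2.04 to −0.02).

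Genes that glucocorticoids induce were lower. Of 16 measured, none was higher and 8 were lower (median −0.60), and without mixed barcodes none of 11 was higher and 6 were lower (median −0.66), beside −0.39 in T nuclei and 0.18 in macrophages. Fkbp5, a chaperone of the glucocorticoid receptor, had 265 UMIs in 48 of 70 HF-PBS nuclei (1264 CPM) and 141 UMIs in 49 of 145 HF-HHT nuclei (312 CPM), a ratio of −2.02 (interval −2.32 to −1.72). Of the 265 HF-PBS UMIs, 110 came from 1 nucleus, and of the 141 HF-HHT UMIs, 37 did. The Fkbp5 ratio was −1.76 (−2.32 to −1.21) without mixed barcodes, −1.23 in T nuclei and −1.96 in macrophages, and free RNA held 759 and 192 CPM. Macrophages held an Fkbp5 UMI in 85.3% and 55.6%. Dusp1, a phosphatase of MAP kinases, had 20 and 10 UMIs (−2.11, −3.37 to −0.95), which at 95.4 and 22.1 CPM lay below its free RNA of 373 and 92.3 CPM. Of 8 clock genes none was higher and 1 lower, Arntl (BMAL1), at 152.6 and 59.7 CPM (−1.35, −2.15 to −0.57), and without mixed barcodes 2 of 5 were lower. Of 6 immediate-early genes 2 were higher and 1 lower, with Jund at 9 and 38 UMIs (0.97, −0.10 to 2.20), and without mixed barcodes 3 of 3 were higher.

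**Figure D5:**
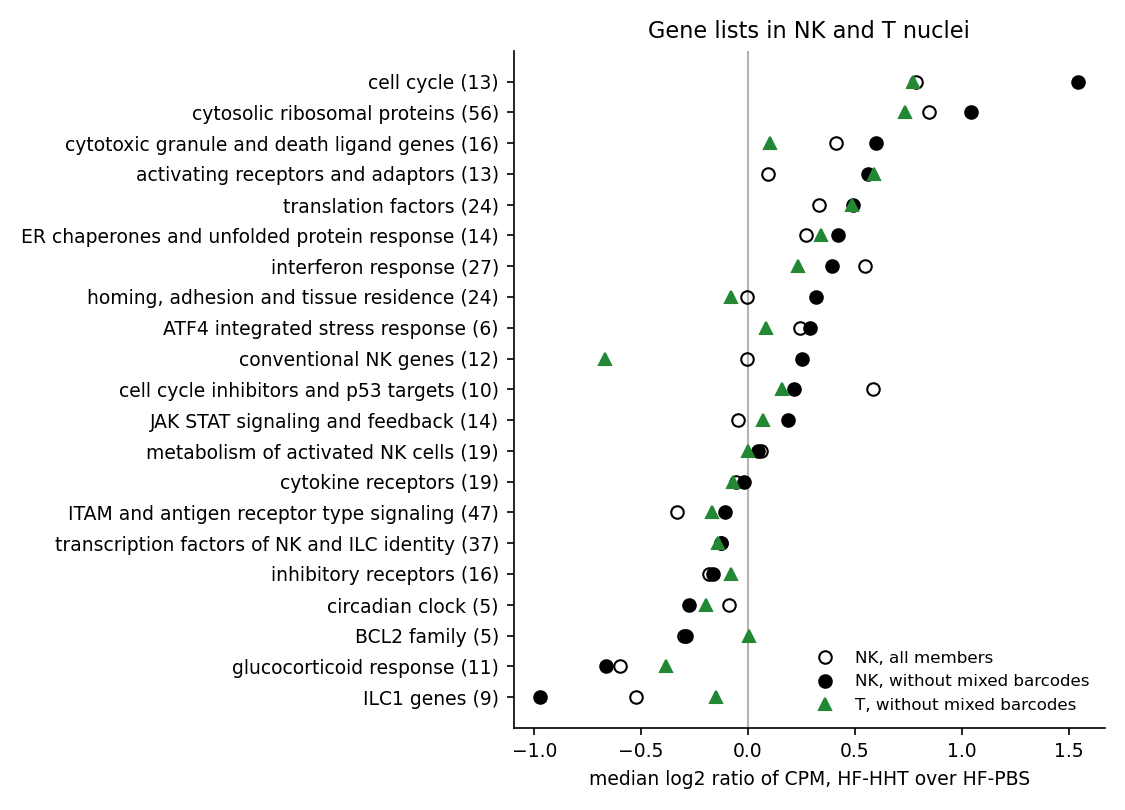
Median log2 ratio of CPM, HF-HHT over HF-PBS, of each gene list in NK nuclei with all barcodes and without mixed ones, and in T nuclei without mixed barcodes. Ribosomal proteins (0.85 over all NK nuclei) and cell cycle genes (0.78, at the minimum of 20 UMIs) lie right of 0, ILC1 genes (−0.52) and glucocorticoid-response genes (−0.60) left of it.

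Among the genes with the highest ratios outside these lists, Pim2, a survival kinase that cytokines induce, had 2 UMIs in 1 HF-PBS nucleus and 39 UMIs in 29 HF-HHT nuclei (3.18, interval 1.23 to 6.27), and 2.76 without mixed barcodes. Gem, a small GTPase of activated lymphocytes, had 0 UMIs and 25 in 18 nuclei, at least 3.87-fold higher, and Lrrc4 0 and 24, at least 3.71-fold higher. Kit, the receptor for stem cell factor, had 5 and 37 UMIs (1.78, 0.43 to 3.48), while Cpa3, a defining gene of mast cells, was at 0 in both libraries. Blm, a DNA helicase, had 2 and 29 UMIs (2.75, 0.77 to 5.86), Taf1a, a subunit of the RNA polymerase I machinery, 2 and 22 (2.35, 0.33 to 5.48), and Ptprcap, a partner of CD45, 2 and 21 (2.28, 0.25 to 5.42). The remaining ratios of that end ran from 1.86 (Rint1) to 2.05 (Sorcs2), with Samd4, Xndc1 and Cmya5 between, and above all of them stood Esrrg. Esrrg, a nuclear receptor of oxidative metabolism, had 2 and 153 UMIs (5.15, 3.27 to 8.21), but 0 and 5 without mixed barcodes, and Samd4 had 1.99 over all nuclei and −1.19 without them.

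At the other end, Ccnd3, the cyclin D3 of lymphocyte division, had UMIs in all 70 HF-PBS nuclei (766 UMIs, 3653 CPM) and in 115 of 145 HF-HHT nuclei (570 UMIs, 1261 CPM), a ratio of −1.53 (interval −1.69 to −1.38). It was −1.44 (−1.64 to −1.25) without mixed barcodes, −0.90 in T nuclei and −1.52 in macrophages, with 856 and 207 CPM in free RNA. St6galnac3, a sialyltransferase, stood at 1731 and 582 CPM (−1.57, −1.81 to −1.34), and at −0.98 in T nuclei and 0.23 in macrophages. Btbd11 stood at 472 and 190 CPM (−1.31, −1.75 to −0.88), Plxnc1, a semaphorin receptor, had 26 and 19 UMIs (−1.56, −2.50 to −0.65), Gramd3 48 and 38 (−1.45, −2.10 to −0.80), and Hvcn1, a proton channel of leukocytes, 20 and 9 (−2.26, −3.58 to −1.06). The other ratios at this end lay between −1.85 (Raver2) and −1.30 (Retreg1 and Neurl3), with Map2k6, Retreg3 and Rab6b among them. Lpin1, a phosphatidate phosphatase, had −1.97 over all nuclei and −0.35 (−2.08 to 1.58) without mixed barcodes.

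Metabolic genes of activated NK cells showed no common direction. Of 27 measured, 9 were higher and 2 lower (median 0.06), and without mixed barcodes 3 of 19 and 1 (median 0.05). Lpl, a lipase that adipocytes and macrophages make, had 1.53 (interval 1.05 to 2.03) over all nuclei and 0.10 (−0.72 to 0.97) without mixed barcodes, and Cd36, a fatty acid transporter, −0.88 (−1.09 to −0.66) and −0.12 (−0.64 to 0.42). Of the 261 Lpl UMIs of HF-HHT, 132 came from 1 nucleus. Neither of 2 measured ILC2 genes differed 1.5-fold, with Gata3 at 9 and 24 UMIs (0.31, −0.85 to 1.60). Of 3 measured T-cell genes 2 were lower, 1 of them Lef1, a partner of TCF-1 in naive lymphocytes, at 329 and 199 CPM (−0.73, −1.19 to −0.25).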

How the data were processed

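Nuclear RNA of epididymal WAT was counted in 2 droplet libraries, HF-PBS and HF-HHT, each of 3 pooled mice. The submitters' processing notes name Cell Ranger 5.0.0 and mm10, with which the authors made UMI counts for each gene in each barcode, and they deposited raw counts for every barcode, with no normalization. How intron reads were treated is not given in the sources read. Every matrix column belonged to a labelled sample.

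NK nuclei were chosen by the rule given above. The members and all 26 gene lists and 16 marker lists were chosen with earlier results of these data known. T nuclei held at least 2 UMIs of Themis, Cd3e and Cd3g and none of Ncr1, Klrb1c, Pax5 or Ms4a1. Other classes were cut in the same way from their markers. UMIs were summed per library and class and scaled to CPM, with a minimum of 20 UMIs, and with 3 counts taken as the floor of a library where a gene had none. The study compared nuclei with a hurdle model that treats nuclei as replicates, which was not used here. Free RNA was the profile of barcodes ranked 45000 to 90000. Likely doublets were kept in the main values. As an alternative, the highest Scrublet scores in scanpy 1.11.5 were removed, 594 HF-PBS and 494 HF-HHT barcodes (9 and 12 of them NK), since the automatic limit took 0 and 200.

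Named genes are the 15 most specific to NK nuclei, the 15 highest and 15 lowest ratios among genes with at least 20 UMIs in at least 10 nuclei of the higher library and at least 2 times its free RNA level, up to 6 per list (the 3 highest and 3 lowest), the genes of the rule, Hspa5, Fkbp5 and Ifng, and predicted genes are not among the ratios named. Computation used Python 3.11.15, numpy 2.4.6, scipy 1.17.1 and pandas 2.3.3, with TMM factors from edgeR 4.0.16 under R 4.3.3 as an alternative. Coordinates come from GENCODE vM21 on GRCm38. Some genes that meet the naming rule are not reported here.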

Additional observations from a re-analysis of the deposited data

How the results depend on the processing

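Both NK shares kept their direction under every alternative tried (log2 ratio 1.18 for kept nuclei as counted, 1.19 to 1.45 otherwise, and 1.45 for T and NK nuclei as counted, 1.43 to 1.76 otherwise), and the lean to ILC1 genes stayed at −1.25 after thinning, −1.41 without mixed barcodes and −1.09 with Zeb2 left out. The number of genes higher and lower in HF-HHT was 1400 and 909 of 5795 measured. It became 518 and 473 of 3059 with a minimum of 50 UMIs. With no minimum, where a 0 is set at 3 counts by construction, it was 3169 and 5609 of 15343. It was 647 and 481 of 2758 when NK nuclei with 3 UMIs of any other class were left out (37 and 101 nuclei remained). Without mixed barcodes it was 758 and 526 of 3506. The shares moved as well as the numbers. From 24.2% higher and 15.7% lower, they became 16.9% and 15.5% with a minimum of 50 UMIs. With no minimum they were 20.7% and 36.6%. TMM and median-of-ratios scaling turned no list median or named gene that differed 1.5-fold.

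With the minimum of 50 UMIs the medians of the cell cycle list and of its inhibitors were −0.13 and −0.13, and with no minimum that of the small nucleolar RNA hosts was −0.11. Subtracting free RNA turned Dusp1 to 2.88 and Errfi1 to 0.15. Leaving out doublets turned Cd36 to 0.44, Lpin1 to 0.74, Orai1 to −0.073 and Trp53inp1 to 0.21. Leaving out nuclei with 3 UMIs of any other class turned Cd200r1 to 0.14. Weighing each nucleus equally turned Fas to −0.23, P2rx7 to 0.024 and Trp53inp1 to 0.41. Leaving out mixed barcodes turned Ctsc to 0.22, Orai1 to −0.094 and Trp53inp1 to 0.16. The cause was not tested. No paired analysis was possible because each group has 1 library, and no library could be left out. The depth limits single genes: no UMI of a gene allows a share of nuclei with a UMI of up to 4.29% in HF-PBS and 2.07% in HF-HHT, by a floor of 3 counts, and is no limit on the nuclei that express the gene.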

Other observations

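Zbtb16, which encodes PLZF, a factor of innate-like lymphocytes that was in a list but outside the naming rule, had 174 UMIs in 26 HF-PBS nuclei and 160 UMIs in 29 HF-HHT nuclei (log2 ratio −1.23, interval −1.55 to −0.91), and −2.28 (−3.24 to −1.38) without mixed barcodes, where 34 and 16 UMIs remained. B2m, the light chain of class I molecules, had 41 UMIs in 23 nuclei and 213 in 102 (1.27, 0.78 to 1.79), and 1.61 (0.96 to 2.33) without mixed barcodes. Both were named after their values were seen. Neither gene is confined to NK nuclei. Macrophages held a Zbtb16 UMI in 74.2% (HF-PBS) and 41.6% (HF-HHT) of nuclei. They held a B2m UMI in 54.6% and 75.3%, so both genes moved the same way there. What part RNA of other cells has in these NK ratios was not tested.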
